A study of Mus musculus with 6 samples.

Results

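The genes described here are 8 contractile and actin-linked genes, Myl9, Tagln, Csrp1, Ankrd1, Cald1, Acta1, Myl4 and Vcl, out of 7605 named genes with a tested probe. They were given by name, and every probe carrying exactly 1 of these symbols in the probe annotation was taken, which gave 13 probes. Each of the 8 genes had at least 1 probe, and 13 of the 13 probes passed the filter on dim signals.

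Cultures of mouse embryonic fibroblasts, the migratory cells of connective tissue, were profiled on Illumina bead arrays of 45281 probes. Wild-type cells (3 arrays, A, B and C) were compared with CypD knockout cells (3 arrays, A, B and C), all grown from E13.5 embryos on a C57BL/6 background in serum-containing medium, with no treatment named. How the deletion was made is not stated in the labels. CypD is cyclophilin D, a peptidyl-prolyl isomerase of the mitochondrial matrix encoded by Ppif, and the series concerns its role in cell cycle progression and in chemokine-directed movement. Whether arrays A, B and C hold RNA of different embryos or cultures is unstated, so the p-values measure only array-to-array spread, which may be technical.

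Fibroblasts pull on their surroundings with bundles of actin and nonmuscle myosin, the stress fibres, which end in focal adhesions where vinculin links actin to integrins. Phosphorylation of the myosin regulatory light chain starts contraction, and calponin-family and caldesmon proteins bind along the filament. Many genes of this machinery are transcribed through serum response factor (SRF), which binds the CArG box, while TEAD factors with the coactivator YAP bind the M-CAT element. Smooth muscle and myofibroblasts make the most of these proteins, and cultured fibroblasts make them at a lower level.

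Values are normalized log2 intensities, on which a difference of 1 is 2-fold, and differences are knockout minus wild type with the standard error (SE) and adjusted p of a limma fit over 27168 probes. A probe was called at an adjusted p under 0.05. Over the array, 20.0% of tested probes were called. Names exist only for probes that the authors' processed table lists, which were selected for variation, and 43.6% of tested named genes were called, 21.8% upward and 21.8% downward. Levels of different probes are not compared, since each probe binds its target differently.

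Array medians of the deposited intensities lay between 223 and 251, and the lowest intensities between 118 and 139. Ppif, the targeted gene, was at 13.57, 13.70 and 13.62 in the wild-type arrays and at 12.25, 12.35 and 12.18 in the knockout arrays (-1.37 ± 0.07, SE); the sources used here do not place its probe relative to the deleted part. Of 17 fibroblast markers 12 had a tested named probe, among them the bright collagen genes Col1a1, Col5a1 and Col6a1, and 4 rose, 4 fell and 4 were not called. Of 22 skeletal muscle, 19 cardiac muscle and 12 pericyte or vascular smooth muscle markers, 2, 2 and 2 had such a probe.

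The stretches of promoter that follow hold motifs known from muscle genes. The CArG boxes shown are those of 3 of the 4 genes that fell, and the M-CAT elements those of Ankrd1, which rose. They were picked with these changes known, and a link between motif and direction was not tested. The remaining gene that fell, Tagln, had no promoter to search. Acta1 and Vcl, which fell, and Cald1, which was not called, hold M-CAT too. Csrp1, which rose most, holds neither motif in the bases searched. The stretches come from RefSeq on build GRCm38.p6, 5′ to 3′ on the strand of the gene, and capitals mark the CArG box in the upper 3, with M-CAT near the end of Acta1, and both M-CAT elements, read on the opposite strand, in Ankrd1.
Myl9, chr2:156775278-156775337, plus strand: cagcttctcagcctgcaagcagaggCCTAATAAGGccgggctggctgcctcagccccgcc
Acta1, chr8:123894814-123894873, minus strand: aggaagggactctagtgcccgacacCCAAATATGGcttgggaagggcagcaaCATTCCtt
Vcl, chr14:20929148-20929205, plus strand: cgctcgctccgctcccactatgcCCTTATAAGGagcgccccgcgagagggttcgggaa
Ankrd1, chr19:36119937-36120079, minus strand: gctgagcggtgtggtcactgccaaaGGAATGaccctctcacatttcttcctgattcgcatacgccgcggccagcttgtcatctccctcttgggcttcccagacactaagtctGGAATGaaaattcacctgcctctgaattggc

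The CArG boxes of Myl9, Acta1 and Vcl began 161, 73 and 227 bases before the annotated start, and the M-CAT elements of Ankrd1 began 210 and 123 bases before it. Both motifs were searched in the 250 bases before each start, the CArG box in its consensus form, which reads the same way on each strand, and M-CAT as CATTCC on either strand. RefSeq promoters were held for 7 of the 8 genes (9 promoters), all but Tagln. A CArG box was found in 3 of those 7 genes, and in 1.62% of all 27025 genes with a promoter there (1.47% of 32851 promoters). M-CAT was found in 4 of the 7, Ankrd1, Acta1, Vcl and Cald1, and in 14.4% of all genes (12.6% of promoters). Neither motif was in these windows of Csrp1 or Myl4. A match describes the letters and not a bound site, and binding was not measured here.

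Taken by the brightest tested probe of each gene, 2 of the 8 genes rose in knockout cells (Csrp1 and Ankrd1), 4 fell (Myl9, Tagln, Acta1 and Vcl) and 2 were not called (Cald1 and Myl4). That is 75% called, against 43.6% of all tested named genes. The median log2 difference was -0.41 over the 8 genes and 0.01 over all tested named genes. A difference of at least 2-fold was seen in 4 of the 8 genes and in 6.07% of named genes. The 8 genes were chosen with earlier results of these data known, so these shares are a description.

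**Figure D1:**
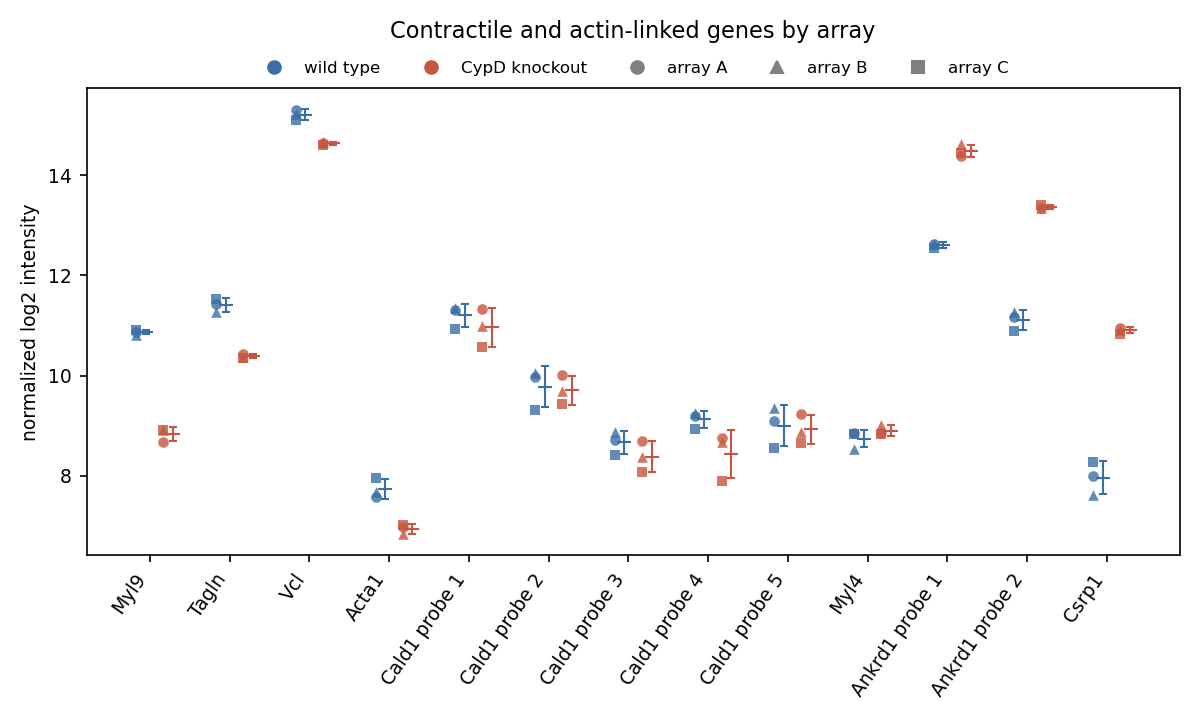
Normalized log2 intensity (y axis) of the 13 probes of the 8 genes (x axis), with wild type in blue and CypD knockout in red, 1 symbol per array letter, and a bar for the mean and SD of 3 arrays. Myl9, Tagln, Vcl and Acta1 lie lower in every knockout array, Ankrd1 and Csrp1 lie higher, and the Cald1 probes spread widely within each group with array C lowest.

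Myl9 encodes the myosin regulatory light chain of smooth muscle and nonmuscle cells, the subunit that myosin light chain kinase phosphorylates to switch on contraction. Its log2 intensity was 10.88, 10.82 and 10.91 in the wild-type arrays, in the order A to C, and 8.67, 8.91 and 8.91 in the knockout arrays. Every knockout array lay far below every wild-type array, and the wild-type arrays were within 0.10 of each other. Means were 10.87 ± 0.05 and 8.83 ± 0.14 (SD, n = 3 each). The knockout mean was 4.11-fold lower, at -2.04 ± 0.09 on the log2 scale (SE; adjusted p = 1.23e-09, limma). The deposited intensities, before any correction, were 2156, 1912 and 1990 in wild type and 501, 551 and 574 in knockout. Myl9 ranked 35th of 3754 named genes with a negative difference, the largest fall among the 8 genes.

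The closest relatives of Myl9 did not all move with it. Myl12a and Myl12b encode regulatory light chains of nonmuscle myosin. Myl12b rose from 13.81, 13.82 and 13.91 to 14.29, 14.25 and 14.34 (0.45 ± 0.05, adjusted p = 3.42e-05), with no overlap, while its other probes gave -0.09 and 0.05 and were not called. Myl12a fell by 0.28 ± 0.08 (adjusted p = 0.0205), a call lost without wild type A (adjusted p = 0.1), without knockout C (adjusted p = 0.107) and without the intensity trend (adjusted p = 0.0758). Because these genes are close copies and the probe sequences were not used here, signal shared between them was not tested.

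Myl4 encodes an essential light chain found in embryonic and atrial muscle. It was at 8.86, 8.54 and 8.83 in wild type and 8.85, 9.02 and 8.83 in knockout arrays. The groups overlapped, with wild type B lowest and knockout B highest. The difference was 0.16 ± 0.11 (adjusted p = 0.386), with a 95% interval from -0.08 to 0.39, which holds 0 and small rises alike. Myl6, which encodes the essential light chain of nonmuscle myosin, was bright and not called (0.12 ± 0.08, adjusted p = 0.332), though it passed without wild type A (0.22, adjusted p = 0.0485).

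Acta1 encodes the actin of skeletal muscle, which is also made at low level elsewhere. The probe read 7.57, 7.68 and 7.96 in wild type and 6.98, 6.84 and 7.02 in knockout. No knockout array reached the lowest wild-type array. The difference was -0.79 ± 0.12 (SE, adjusted p = 0.00028), or 1.73-fold lower, but the signal was dim. Deposited intensities of 307 to 326 in wild type and 203 to 221 in knockout put the knockout arrays below their own array medians, where expression is not separated from background. Ranked among all probes, the gene stood at the 66.7th percentile in wild type and at the 42.5th in knockout. The size of the fall therefore depended on the correction, from -0.50 without it to -1.01 with an offset of 16 in place of 50, and the probe was removed by a filter at the 70th percentile.

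Few other muscle markers had a tested named probe. Among skeletal muscle markers, Tnni2, a fast troponin, fell by 0.88 ± 0.13 and Actn2, a sarcomeric actinin, was at 0.41 ± 0.13 (adjusted p = 0.0456), a call lost in 8 of the other settings. The summed deposited intensity of these 2 markers was 604 to 684 in wild type and 510 to 551 in knockout. The cardiac markers Nppb and Hopx, at -0.77 ± 0.10 and -0.56 ± 0.13, summed to 579 to 631 and 433 to 443. The part of muscle cells in the Acta1 value was not tested, and in bulk RNA fewer cells of a type and less RNA per cell cannot be told apart.

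Acta2, the smooth muscle actin that marks myofibroblasts, is named here after its values were seen, as the actin partner of Myl9 and Tagln. Its brightest probe fell only by 0.26 ± 0.05 (adjusted p = 0.00152), from 15.86, 15.92 and 16.01 to 15.68, 15.69 and 15.65, near the top of the scale. The other 4 probes fell by 0.62 to 0.80 and were called. The call of the brightest probe was lost without the intensity trend (adjusted p = 0.0542). The cytoplasmic actin Actb was not called by any of its 3 probes (-0.12 ± 0.09 by the brightest, adjusted p = 0.391), though that probe passed without wild type A (-0.24, adjusted p = 0.0288).

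Tagln encodes transgelin (SM22), a calponin-family protein that bundles actin and is an early marker of smooth muscle and myofibroblasts. It read 11.42, 11.27 and 11.53 in wild type and 10.43, 10.38 and 10.35 in knockout. The knockout arrays were nearly alike and all lay below the wild-type arrays. Means of 11.41 ± 0.13 and 10.39 ± 0.04 (SD, n = 3 each) differed by -1.02 ± 0.08 (SE, adjusted p = 6.03e-07), or 2.03-fold. Its relative Tagln2, common in nonmuscle cells, fell by 0.59 ± 0.08 (adjusted p = 6.1e-05). The third member of the family, the neuronal Tagln3, was dim and went the other way at 0.38 ± 0.12 (adjusted p = 0.0413), a call lost without wild type B, without any 1 of the knockout arrays (adjusted p = 0.0761 to 0.173 over these) and without the filter (adjusted p = 0.0533).

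Cald1 encodes caldesmon, which binds actin and tropomyosin and restrains the myosin motor, with long smooth muscle and short nonmuscle forms made by splicing. It had 5 named probes, and the sources used here do not say which form each one reads. Its brightest probe (probe 1 in the plots) read 11.32, 11.35 and 10.94 in wild type and 11.33, 10.98 and 10.57 in knockout. The groups overlapped, and the difference was -0.24 ± 0.16 (adjusted p = 0.354), ranging from -0.43 without knockout A (adjusted p = 0.058) to -0.05 without knockout C (adjusted p = 0.889). The 2 probes annotated to the RefSeq transcript (probes 2 and 5) gave -0.07 ± 0.18 and -0.08 ± 0.18, and probe 3 gave -0.29 ± 0.15, none of them called. All 4 intervals of these probes reach 0, and at the low end they run from -0.45 to -0.61.

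Only probe 4 of Cald1 was called. It read 9.20, 9.25 and 8.93 in wild type and 8.75, 8.69 and 7.89 in knockout, without overlap, a difference of -0.68 ± 0.18 (adjusted p = 0.0166). The call was lost without wild type A (-0.64, adjusted p = 0.066) and without wild type B (-0.62, adjusted p = 0.0612). The size moved most without knockout C, the lowest array, to -0.41, with the call kept. Within each array, the log2 value of probe 4 minus that of the brightest probe was -2.12, -2.10 and -2.01 in wild type and -2.58, -2.30 and -2.68 in knockout. The groups did not overlap in that ratio either, and the exact permutation test, two-sided, gave p = 0.1, the smallest value that 3 arrays against 3 can give, with 4 such Cald1 pairs computed. The other 3 pairs overlapped (exact p = 0.2 to 0.5).

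Cald1 varied more within groups than most genes did. The pooled within-group SDs of its 5 probes were 0.27 to 0.36, at the 96.8th to 99.2nd percentile of tested probes, whose median SD was 0.12. In each of the 5 probes array C was the lowest in wild type and also the lowest in knockout, with B highest in wild type and A highest in knockout. The probes share their RNA and array, so this is 1 observation per array and not 5. By contrast Vcl, Ankrd1 by its brightest probe, Tagln and Myl9 had SDs of 0.08 to 0.10, below the median probe. Csrp1 (0.24, at the 94.3rd percentile), Acta1 (0.16), Myl4 (0.15) and the second probe of Ankrd1 (0.14) lay above the median.

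Vcl encodes vinculin, which ties actin to integrins and cadherins and bears load at adhesions. It was among the brightest probes, with 15.30, 15.23 and 15.10 in wild type and 14.64, 14.66 and 14.60 in knockout. The knockout arrays were tightly grouped below the wild-type arrays. The difference was -0.58 ± 0.06 (SE, adjusted p = 4.34e-06), or 1.49-fold lower, at the 99.5th and 99.1st percentile of all probes. Deposited intensities of 35708 to 43841 in wild type and 23609 to 24615 in knockout gave the same order without correction. Vcl lies on the chromosome of Ppif, 14, with 18 protein-coding genes between them in the RefSeq order. Of these, 6 had a tested named probe, and 1 rose, 2 fell and 3 were not called, beside 43.6% called of all tested named genes. The part of this location in the Vcl value was not tested.

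Csrp1 encodes a LIM-domain protein that binds actinin and zyxin on actin filaments and is abundant in smooth muscle. It showed the largest difference of the 8 genes. It read 7.99, 7.62 and 8.28 in wild type and 10.96, 10.91 and 10.84 in knockout. All knockout arrays lay over 2 units above the highest wild-type array, while the wild-type arrays themselves spread by 0.67. Means were 7.96 ± 0.34 and 10.90 ± 0.06 (SD, n = 3 each), a difference of 2.94 ± 0.13 (SE, adjusted p = 1.7e-09), or 7.67-fold higher, which ranked 17th of 3851 named genes with a positive difference. The deposited intensities rose from 376, 298 and 384 to 2033, 1935 and 1916. The wild-type signal stood at the 69.3rd percentile of all probes, where background is a large part of the reading, so the fold is uncertain and ran from 2.54 to 3.13 on the log2 scale over the other settings.

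The related gene Csrp2 rose too. It went from 13.33, 13.07 and 13.31 in wild type to 14.55, 14.56 and 14.54 in knockout (1.32 ± 0.07, adjusted p = 6.93e-09). The groups did not overlap, and Csrp2 was bright in each of them. Zyx, which encodes the Csrp1 partner zyxin, rose by 0.31 ± 0.05 (adjusted p = 0.000622). Actn1, which encodes the nonmuscle actinin and is named after its values were seen, fell by 0.22 ± 0.06 (adjusted p = 0.0159), a call lost without wild type A, wild type B or knockout C (adjusted p = 0.066, 0.07 and 0.0732) and without the intensity trend (adjusted p = 0.113).

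Ankrd1 encodes an ankyrin-repeat protein of the sarcomere and nucleus that responds to stretch and is a common readout of YAP and TEAD. Its brighter probe read 12.64, 12.63 and 12.54 in wild type and 14.38, 14.61 and 14.43 in knockout. The second probe read 11.16, 11.27 and 10.89 against 13.34, 13.35 and 13.41. Neither probe showed any overlap between the groups. The differences were 1.87 ± 0.07 (adjusted p = 1.42e-10) and 2.26 ± 0.09 (adjusted p = 3.08e-10), or 3.67-fold and 4.79-fold higher. The ratio of the probes within an array also differed between the groups without overlap, by 0.39, with an exact permutation p of 0.1, two-sided, the smallest possible. In wild-type cells Ankrd1 was already at the 94.9th percentile of all probes by its brighter probe.

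**Figure D2:**
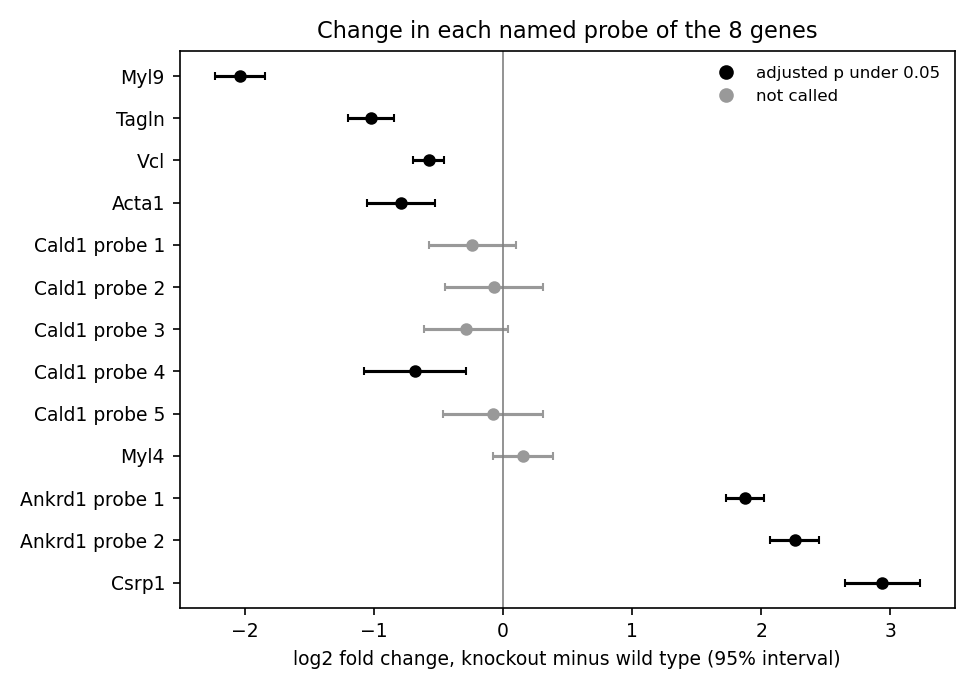
Log2 fold change, knockout minus wild type (x axis), of each named probe of the 8 genes (y axis), with 95% intervals from limma; black points have an adjusted p under 0.05 and grey points were not called. Myl9 at -2.04 and Csrp1 at 2.94 mark the ends, and 4 of the 5 Cald1 probes and Myl4 have intervals that reach 0.

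Profiles most like those of the 4 genes that changed at least 2-fold were sought among 7604 other named genes. The measure was the Euclidean distance over 6 arrays, each probe centred on its mean, which mostly reads the size of the difference between the groups. The nearest to Myl9 were Fam180a, Rasgrp3 and Wnt10b (distances 0.127 to 0.143 log2 units). Tagln was nearest to Crip2, Rnf19b and Zfp979 (0.123 to 0.131), and Ankrd1 to Kcp, Arhgdib and Lrfn3 (0.0919 to 0.163). Csrp1 was farther from any other gene, with Dlk1, Mgp and Tbx1 at 0.297 to 0.455. None of these 12 genes was a member or stood on a list of related genes.

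The 8 genes were then set beside 6 lists of related genes, with members left out and each gene taken by its brightest tested probe. Over the lists together 103 genes were tested, 19 rose, 36 fell and 48 were not called, which is 53.4% called against 43.6% of all tested named genes, with a median of -0.08. Of all tested named genes 21.8% were called upward and 21.8% downward, and the counts per list are descriptions beside these shares. Focal adhesion genes, the partners of Vcl, fell more often than they rose: 8 of 20 fell, 1 rose and 11 were not called (median -0.21), with the fibronectin receptor subunit Itga5 at -0.87 ± 0.10 (-0.39 by its other probe, also called), the small heat shock protein gene Hspb1 at -0.57 ± 0.08 and the adhesion scaffold Tns1 at -0.55 ± 0.09. The single rise was that of Zyx. Of 10 smooth muscle contractile genes, the group of Tagln and Acta2, 5 fell, 2 rose and 3 were not called (median -0.24), and leaving out knockout A gave 3, 1 and 6. Here Tpm1, a tropomyosin, fell by 0.45 ± 0.06 by its brightest probe while its other probe rose by 0.36 ± 0.06, and Smtn (smoothelin) fell by 0.32 ± 0.09, a call lost without knockout A or C (adjusted p = 0.0555 and 0.0721) and without the intensity trend (adjusted p = 0.0503). The other probe of Smtn gave -0.33 ± 0.10 and was also called (adjusted p = 0.0389, limma).

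Mylk of the smooth muscle list, the kinase that phosphorylates the Myl9 protein and a gene named after its values were seen, had a difference of -0.23 ± 0.10 (adjusted p = 0.139). Among 26 actin and filament regulators 8 fell, 5 rose and 13 were not called (median -0.04), with the capping protein gene Capg at -0.58 ± 0.08 and the filament crosslinker Flna at -0.47 ± 0.08, against 0.47 ± 0.11 for Eps8 and 0.43 ± 0.06 for Tmsb10, whose other probes gave 0.32 and -0.60, called in opposite directions. Tpm4 and Tpm3, named after their values were seen, were not called by their brightest probes (0.21 ± 0.21 and -0.02 ± 0.13). The other probe of Tpm4 rose by 2.25 ± 0.10 (adjusted p = 8.53e-10, limma). Those of Tpm3 rose by 0.43 and 0.55, both called.

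Transcripts of factors known to bind these motifs were measured as well. Srf itself, named after its values were seen, fell by 0.41 ± 0.06 (adjusted p = 0.000206), from 12.89, 12.84 and 12.86 to 12.47, 12.42 and 12.48, without overlap. For the counts that follow, 21.8% of all tested named genes were called upward and 21.8% downward. Of 13 SRF factors and targets 5 fell, 2 rose and 6 were not called (median -0.16), and 7, 4 and 2 without wild type C. Fhl1, a LIM-domain gene expressed in muscle, changed most, by -2.00 ± 0.06 (adjusted p = 4.54e-11), with -2.09 and -0.98 from its other probes; Fhl2 fell by 0.54 ± 0.07. The immediate early genes Egr3 and Egr2 rose by 1.10 ± 0.08 and 0.86 ± 0.10, whereas Jun fell by 0.49 ± 0.09 and Egr1 was not called (0.14 ± 0.06), though it passed without wild type C (adjusted p = 0.0178). Among 20 YAP and TEAD factors and targets, the group of Ankrd1, 4 rose, 5 fell and 11 were not called (median 0.13). Its well-known targets Ccn1 and Ccn2, named after their values were seen, were at -0.06 ± 0.15 (not called) and -0.24 ± 0.05 (adjusted p = 0.00223), the latter call lost without the intensity trend (adjusted p = 0.0587). The other probe of Ccn2 gave -0.42 ± 0.05 and was called (adjusted p = 1.71e-05, limma). Ccn1 passed as a fall without wild type C (-0.28, adjusted p = 0.0367). It turned positive, not called, without wild type A, wild type B or knockout B (0.010, 0.092 and 0.018). In the YAP and TEAD list Tead2 rose by 0.55 ± 0.08 and Dlc1 by 1.30 ± 0.17, while the called falls included Foxf2, dim in knockout, at -1.0 ± 0.12, the TEAD cofactor gene Vgll3 at -0.80 ± 0.07 (-1.0 by its other probe, also called) and Gadd45b at -0.53 ± 0.09 (-0.21 by its other probe, not called). The factors Tead1 (0.28 ± 0.16), Tead4 (0.16 ± 0.11), Yap1 (0.18 ± 0.08) and Wwtr1 (-0.14 ± 0.07), named after their values were seen, were not called. In the TGF-beta pathway, which drives myofibroblasts to make Tagln and Acta2, 5 of 15 genes rose, 5 fell and 5 were not called, with Tgfbi at 1.01 ± 0.07, Smad2 at -0.71 ± 0.07 and the ligand Tgfb1, dim in knockout, at -0.61 ± 0.13.

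**Figure D3:**
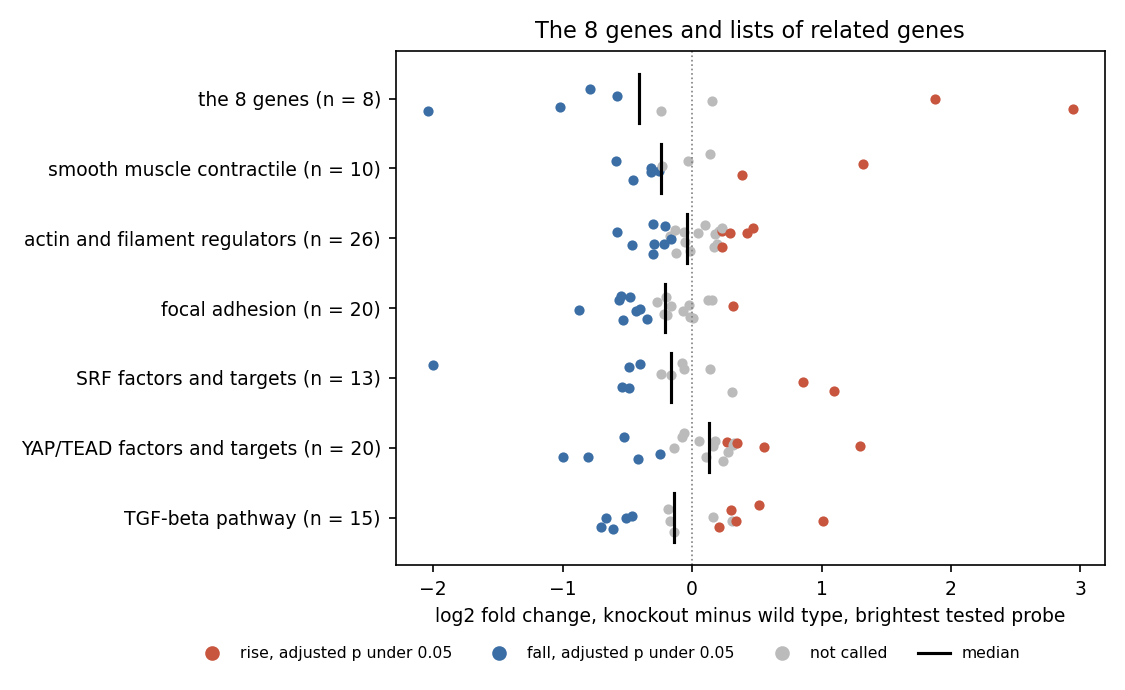
Log2 fold change, knockout minus wild type (x axis), of the 8 genes (top) and of the tested genes on 6 lists (y axis), 1 point per gene by its brightest tested probe, with rises in red, falls in blue, genes not called in grey and a black line at the median. The medians run from -0.41 for the 8 genes to 0.13 for YAP and TEAD genes. By these probes Csrp1 and Ankrd1 lie to the right of every listed gene. The other probe of Tpm4, at 2.25, is not plotted.

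Markers of other cells that could sit in such cultures are given with these results. Among all tested named genes 43.6% were called. Of 4 tested neural markers 3 fell, and their summed deposited intensity was 6364 to 6682 in wild type and 2270 to 2398 in knockout, led by Stmn2 (-2.79 ± 0.08). The 2 pericyte or vascular smooth muscle markers with a probe were Cspg4, at -0.58 ± 0.11, and Mcam, not called at 0.06 ± 0.12; their sums were 2042 to 2595 and 1802 to 2452 and overlapped. Endothelial markers (4 of 11 tested, 2 rises and 1 fall) summed to 3816 to 4026 and 3903 to 4102, epithelial markers (4 of 10, 1 rise and 1 fall) to 1911 to 2182 and 2334 to 2465, and leukocyte markers (2 of 9, 0 called by limma) to 1077 to 1204 and 1049 to 1069. Each leukocyte marker passed with 1 array left out, Coro1a when wild type C was (adjusted p = 0.00696) and Cd14 when wild type B was (adjusted p = 0.0462). The higher epithelial sum in knockout came from Spint1, at 838 to 993 in wild type and 1458 to 1504 in knockout. Spint1 rose by 0.78 ± 0.08, and its other probe gave 0.23 and was not called. Krt19 fell by 0.35 ± 0.10, and 12 of 15 other settings kept that call. Krt7 was at -0.32 ± 0.13, not called, though it passed as a fall without knockout B (adjusted p = 0.0455). Cdh1, named after its values were seen, was at -0.09 ± 0.13 and not called. Fibroblast markers summed to 80734 to 95323 in wild type and 70943 to 78378 in knockout. Bright probes weigh most in this sum, among them Col1a1, at 15995 to 18623 in wild type and 10058 to 10645 in knockout. By gene the markers were split. Pdgfra, Col3a1, Fbln1 and Pdgfrb rose, at 1.47, 1.13, 0.75 and 0.41. S100a4, Dcn, Col1a1 and Col1a2 fell, at -1.62, -0.64, -0.63 and -0.36, and 4 were not called. The lowest intensities on the arrays were 118 to 139, so the probe of an absent marker would not read 0. The part of these cell types in the values of the 8 genes was not tested.

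**Figure D4:**
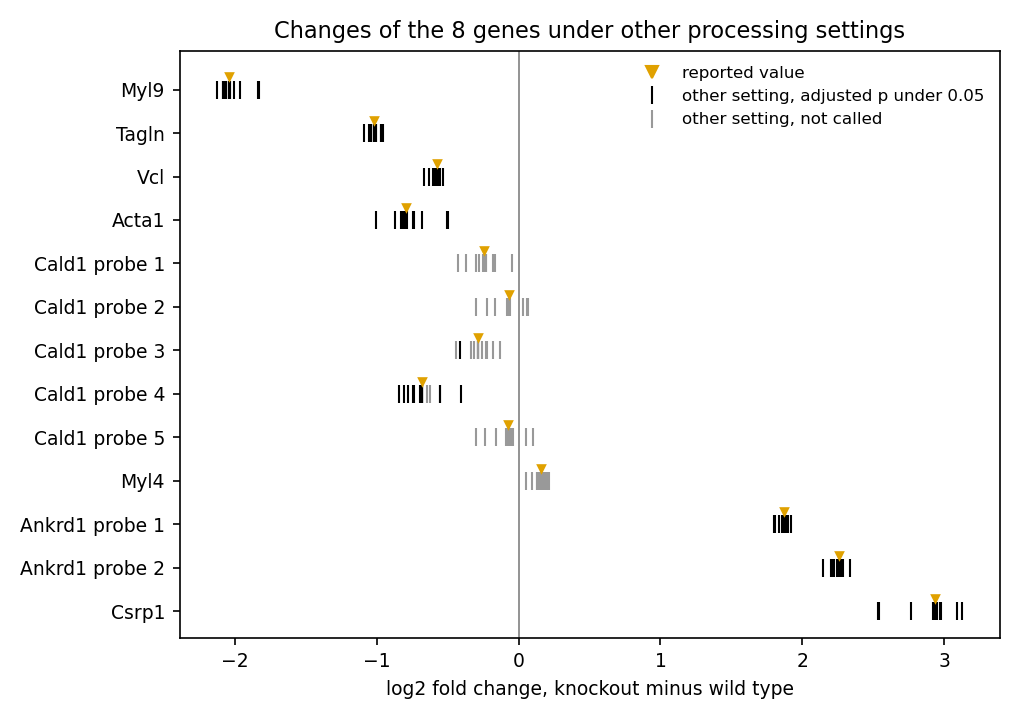
Log2 fold change, knockout minus wild type (x axis), of each named probe of the 8 genes (y axis) under the other settings that could be fitted, with black ticks for an adjusted p under 0.05, grey ticks for probes not called and a triangle at the reported value. Myl9, Tagln, Vcl, Acta1, Ankrd1 and Csrp1 keep their sign and their calls in each setting that tested them, whereas Cald1 probes 3 and 4 change call and probes 2 and 5 cross 0.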

How the data were processed

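Total RNA of 6 samples was hybridised to Illumina arrays. The authors deposited a linear intensity for every probe of each array, and a processed table of 12534 probes, also intensities, which equal the quantile-normalized raw values to within a factor of 0.979 to 1.01. The submitters' processing notes name BeadStudio 3.0. No detection p-values, slides or scan dates were in the files used here.

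Intensities were background-corrected (normexp, offset 50), quantile-normalized and analysed as log2 values with limma 3.58.1 (R 4.3.3). Probes above the 40th percentile of mean intensity were tested (lmFit, eBayes with an intensity trend, two-sided, Benjamini-Hochberg over 27168 probes). The code was tested on simulated data. Intervals are 95%.

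The members and lists were chosen with earlier results of these data known. Named genes were the members, Ppif, and per list the 3 largest non-overlapping rises and falls called, the brightest gene not called, and the 3 brightest markers; some are given by count only, and 1 list is not reported here. Same-letter deviations correlated at 0.10, -0.09 and 0.08, so letters were not taken as pairs. Alternatives were another background correction, offset, scaling, filter, source table, variance model, array weights, a replicate block, another probe and each array left out.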

Additional observations from a re-analysis of the deposited data

How the results depend on the processing

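The count of called members was 6 of 8, and 6 in every other setting except 5 of 7 at a filter on the 70th percentile, which removed Acta1, and 7 with the probe of highest variance, which takes Cald1 by probe 4 (-0.68, adjusted p = 0.0166). With the replicate block it was 6, and 5273 probes were called in all against 5423; no call of a member's probe changed. Leaving out 1 array gave 5903 called probes when it was wild type C, and 4079 to 4515 when it was any other array. Myl9, Tagln, Vcl, Ankrd1 and Csrp1 kept sign and call in every setting run, and Acta1 did so in the 14 settings that tested it. The ranges were -2.13 to -1.83 for Myl9, -1.09 to -0.96 for Tagln, -0.67 to -0.54 for Vcl and 2.54 to 3.13 for Csrp1. Ankrd1 ran from 1.80 to 1.92 by its brighter probe, and its second probe, the one of highest variance, gave 2.26. Cald1 probe 1 was never called and ran from -0.43 to -0.05 with 1 array left out. Probe 2 turned positive without wild type A, wild type B or knockout C (0.031, 0.061 and 0.068), and probe 5 without wild type B or knockout C (0.10 and 0.055), none called, and their lowest values were -0.30 and -0.30; probe 3 was called without wild type C (-0.41, adjusted p = 0.0461). The cause was not tested. Of 38 related genes named by the rule, 566 values in other settings kept sign and side of the threshold in 549 cases, lost a call in 10, gained one in 3 and reversed in 4, all in genes that were not called: Birc5 0.00073 without wild type B, Cavin1 0.084 without knockout A, and Cnn2 0.00043 with array weights and 0.034 without wild type C. With 1 array left out the ranges were -0.14 to 0.00073 for Birc5, -0.11 to 0.084 for Cavin1, -0.12 to 0.034 for Cnn2, -0.28 to 0.092 for Ccn1 and -0.060 to 0.18 for Mcam. Without the intensity trend, calls fell from 7 to 4 in the smooth muscle list and from 13 to 8 in the actin list. With 3 arrays a group and no detection values, dim probes such as Acta1 and wild-type Csrp1 carry the least certain folds.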
